A study of Mus musculus with 18 samples.

Results

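The proteasome genes of mouse splenocytes were examined in 18 RNA-seq libraries. The set holds the reference genes whose symbols begin with Psma to Psmg and a number, without pseudogenes, without the immunoproteasome genes Psmb8, Psmb9 and Psmb10, and with a mean of at least 1 FPKM (fragments per kilobase of gene length, scaled to library size) over the 18 libraries. Of 47729 reference genes, 54 had such a symbol, 47 were left after the pseudogenes and the immunoproteasome genes, and 46 reached the minimum. All 46 are protein-coding. Psmc3ip is among them by its name only, since it encodes a meiotic recombination factor and no proteasome subunit.

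The study asked how particles that carry dendritic cell membrane proteins (MP) on LPPC, a lipo-PEG-PEI complex, steer specific immunity when antibodies are added. LM mice (3 libraries) received LPPC/MP, LMA mice (6) received LPPC/MP and then the complex with anti-CD28 antibody, labelled LPPC/mp/CD28, LMS mice (6) received LPPC/MP and then the complex with anti-CTLA4 antibody, labelled LPPC/mp/CD152, and N mice (3), labelled Naive, were untreated. All are labelled as spleen of female C57BL/6J mice, 4 to 6 weeks of age, with no altered gene. The labels do not say which LMA and LMS libraries followed 1 and which followed 2 modulations, their tumour and Trizol protocols differ from the splenocytes and column kit of the study's methods, and no source says that the libraries of a group came from separate animals, so that p-values measure only the spread between libraries.

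The proteasome degrades proteins tagged with ubiquitin. Its 20S core is a barrel of outer rings of alpha subunits and inner rings of beta subunits, of which Psmb5, Psmb6 and Psmb7 carry the cutting sites. The 19S cap, with a base of Psmc ATPases and further Psmd subunits, recognizes, unfolds and feeds substrates, while Psme1 and Psme2 form the alternative PA28 cap. In cells exposed to interferon gamma, and in many lymphocytes, Psmb8, Psmb9 and Psmb10 take the places of the constitutive cutting subunits to make the immunoproteasome, which favours peptides that fit MHC class I.

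Within LMS and within N the libraries stood apart from each other. The libraries N 1, N 2, LMS 2 and LMS 5, called lymphocyte-rich here, had 1365 to 1780 FPKM summed over 8 B cell markers and 365 to 566 over 8 T cell markers, against 28.8 to 326 and 6.94 to 115 in the other 14 libraries. Over 10 macrophage markers those 4 libraries held 487 to 562 FPKM, the 9 LM and LMA libraries 2129 to 2303 FPKM, and the other 5 LMS and N libraries (LMS 1, LMS 3, LMS 4, LMS 6 and N 3) 3299 to 3643 FPKM. All markers of these 3 lists were detected at 0.5 FPKM or more in some library of each of these sets. The neutrophil list of 10 markers was highest in LM and LMA, at 1531 to 2928 FPKM, against 26.3 to 553 in the 9 LMS and N libraries. The Y-linked gene Eif2s3y had a listed value of 0 in the 4 lymphocyte-rich libraries and of 31 to 43 FPKM in the other 14, which goes against the label female. The label of spleen therefore stands beside lymphocyte markers that are low in 14 of 18 libraries, and every comparison is given with all libraries, then leaving out the 4 lymphocyte-rich ones, then leaving out the other 5 LMS and N libraries. The part of these cell type markers in the results was not tested. In such bulk libraries fewer cells of a type and less RNA per cell cannot be told apart.

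The amount of proteasome transcript differed between these sets of libraries. The FPKM of the 46 genes summed to 1578 to 1749 in the 4 lymphocyte-rich libraries, to 2518 to 2603 in the other 5 LMS and N libraries, and to 2509 to 2650 in LM and LMA. As a share of all reference FPKM this was 3.78 to 4.23 per mille in the first 4 libraries and 6.49 to 7.32 per mille in the other 14. That total includes erythroid genes, 7 of which summed to 83985, 72338 and 74838 FPKM in N 2, LMS 2 and LMS 5. In N 1, with 2519 FPKM of them, the share was 4.23 per mille. The part of the erythroid genes in the share was not tested. Of the 46 genes, 28 were lower in each of the 4 libraries than in any of the 14, while 28.1% of all 11436 tested genes were. Only Psme1, Psme2b and Psmf1 were higher in each of the 4, as were 29.2% of all tested genes. For Psmf1 this did not recur at a locus assembled from the same reads, described below. That locus had 7.46 FPKM in N 1 and 13.2 FPKM in LMS 6. The remaining 15 genes overlapped.

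**Figure D1:**
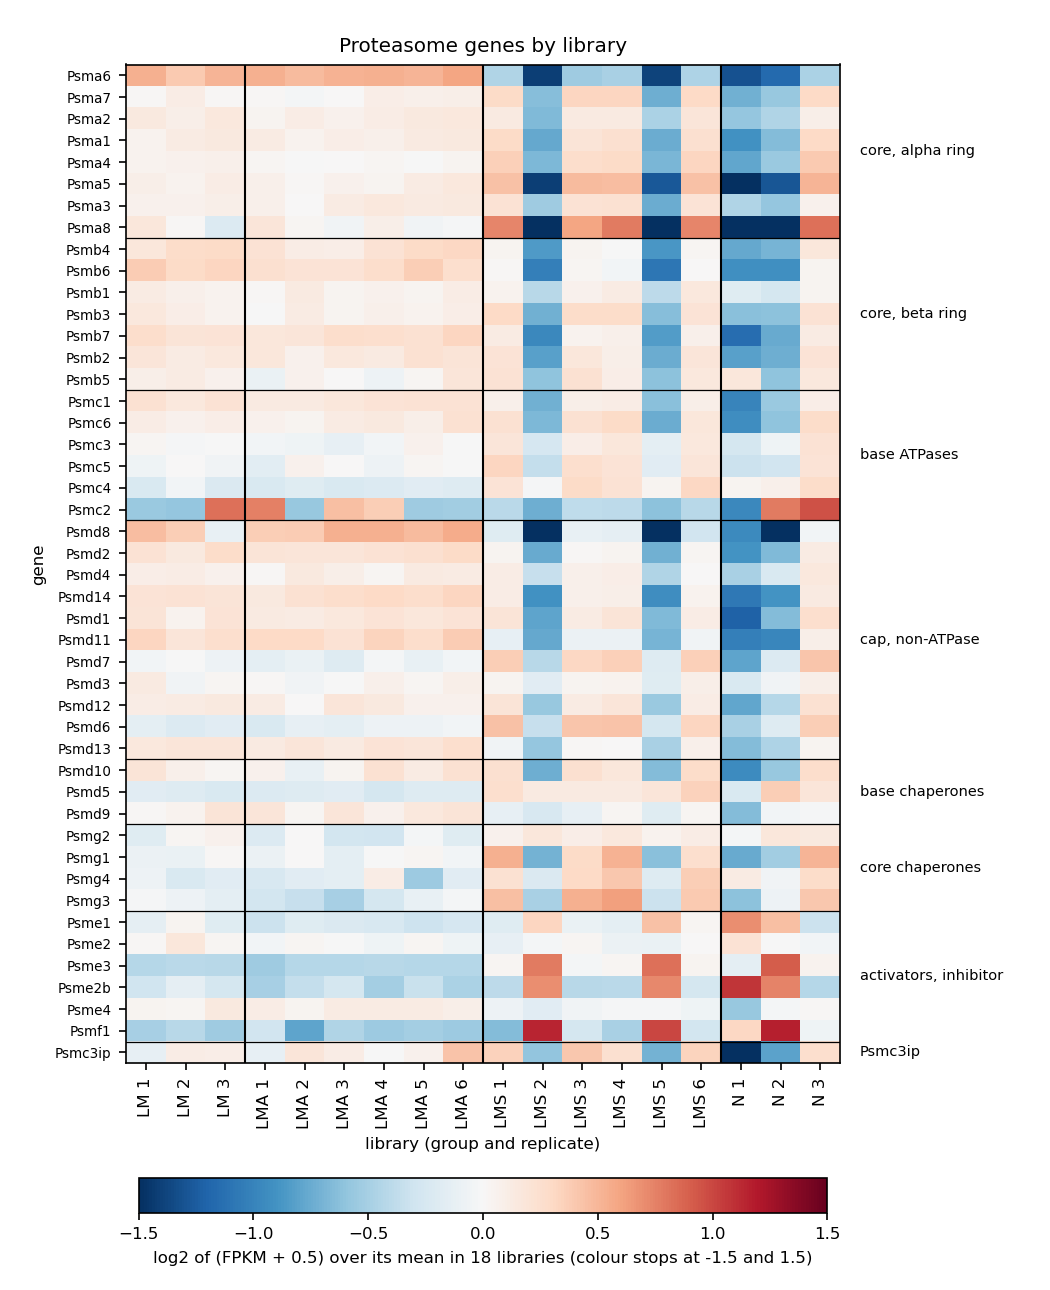
Each row is a gene, grouped by its place in the proteasome, and each column a library, with the groups LM, LMA, LMS and N separated by lines; colour gives log2 of FPKM + 0.5 over its mean across the 18 libraries. N 1, N 2, LMS 2 and LMS 5 are blue for most core and cap subunits and red for Psme1, Psme2b and Psmf1, and Psma6 is highest in LM and LMA.

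Within the particle the levels were uneven. Psma6, an alpha subunit, had the highest mean, 135 FPKM, and Psma8, an alpha subunit that replaces Psma7 in the germ line, the lowest, 4.4 FPKM. Mean levels over the libraries ran from 26.2 FPKM for Psmb5 to 121 for Psmb4 among the 7 beta subunits, from 19.2 for Psmc2 to 73.4 for Psmc1 among the 6 ATPases, and from 33.5 for Psmd13 to 99.4 for Psmd8 among the 11 other cap subunits. The assembly chaperones, which help to build the core and the base and then leave, were lower, at 7.74 FPKM for Psmd9 to 16.8 for Psmd10 among the 3 base chaperones and 9.29 for Psmg3 to 12.7 for Psmg2 among the 4 core chaperones.

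Promoter sequence is shown for 4 genes named in the comparisons. Psma6 and Psmb6 were highest in LM and LMA, and Psme1 was highest in N 1. Psmd8 rose in LMA and, at an assembled locus described below, in LM against N as well. Of the 46 genes, 38 had a promoter window in the RefSeq table (GRCm38.p6, the build named mm10), 41 windows in all, each of 250 bases before and 50 bases from a start site on. Printed are the last 180 bases before the start and the first 20 from it. Psma6 (files: chr12:55384222-55418454) has windows at 2 starts, chr12:55384042-55384241 and chr12:55398645-55398844, both on the plus strand, and which start was used in these cells is not recorded in the files. Psmd8 lies on the minus strand (chr7:29180654-29180853), Psmb6 on the plus strand (chr11:70525177-70525376) and Psme1 on the plus strand (chr14:55578314-55578513). The Psme1 gene is listed from chr14:55578123, so that its window lies inside the gene, and which start was used is not recorded. Capitals mark matches, on either strand, to TGACNNNGC, the core of the antioxidant response element that the factor NRF1 binds, to the variant TGAGNNNGC, to CCAAT, and to GAAA, any 2 bases, GAAA, a core of interferon-stimulated response elements.
Psma6, upstream start: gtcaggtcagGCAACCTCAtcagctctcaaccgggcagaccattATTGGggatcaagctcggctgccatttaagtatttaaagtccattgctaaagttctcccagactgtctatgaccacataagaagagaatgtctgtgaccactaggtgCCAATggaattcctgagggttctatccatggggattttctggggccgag
Psma6, downstream start: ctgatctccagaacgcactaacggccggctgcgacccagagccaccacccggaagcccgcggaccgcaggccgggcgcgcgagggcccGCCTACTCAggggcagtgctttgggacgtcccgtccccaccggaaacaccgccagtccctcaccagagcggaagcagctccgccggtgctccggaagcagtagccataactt
Psmd8: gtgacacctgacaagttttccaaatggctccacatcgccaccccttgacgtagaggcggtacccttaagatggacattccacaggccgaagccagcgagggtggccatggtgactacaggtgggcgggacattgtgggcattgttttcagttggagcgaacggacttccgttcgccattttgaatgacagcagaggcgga
Psmb6: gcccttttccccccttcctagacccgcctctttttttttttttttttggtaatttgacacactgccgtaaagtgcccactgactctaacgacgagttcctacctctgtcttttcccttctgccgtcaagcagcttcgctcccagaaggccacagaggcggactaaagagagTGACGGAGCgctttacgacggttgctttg
Psme1: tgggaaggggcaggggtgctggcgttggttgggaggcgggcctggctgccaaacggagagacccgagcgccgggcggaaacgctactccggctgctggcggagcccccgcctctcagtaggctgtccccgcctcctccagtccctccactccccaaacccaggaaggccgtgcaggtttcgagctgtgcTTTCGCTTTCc

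The Psmb6 window held TGACNNNGC with its first base 9 bases before the start. Both Psma6 windows held TGAGNNNGC on the minus strand, 170 and 92 bases before their starts, and the upstream one also held CCAAT, at 136 and 29 bases before the start. The Psme1 window held the interferon element core on the minus strand, from base 10 after the start. None of the 4 motifs was in the printed stretch of Psmd8. Over all windows of the 46 genes TGACNNNGC was found in 6 of 41 (14.6%), against 12.4% of 32851 windows of all genes. TGAGNNNGC was found in 14 of 41 (34.1%, against 17.6%), CCAAT in 13 of 41 (31.7%, against 37.4%) and the interferon element core in 5 of 41 (12.2%, against 3.44%). These shares describe letters in the windows and were not tested.

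LM against N asks what the LPPC/MP complex alone did. With all libraries, 4 proteasome genes rose in LM (9.18% of all tested genes did) and 1 fell (15.9% of all did). Psma6 had a log2 difference of 1.46 ± 0.26 (SE), Psmb6 of 0.92 ± 0.31, Psmd11 of 0.89 ± 0.25 and Psmd13 of 0.53 ± 0.18, and the ATPase Psmc4 one of -0.29 ± 0.09 (limma adjusted p = 8.5e-04 to 0.0384). All LM values were above all N values for 13 genes and below for 4 (13.2% and 20.4% of all tested genes). The median log2 difference of the 46 genes was 0.38, beside -0.11 for all 11436 tested genes. In the base chaperones, the core chaperones and the activators no gene passed the threshold. The calls depended on which N libraries were kept. When the 4 lymphocyte-rich libraries were dropped, 6 rose and 17 fell (25.8% and 34.4% of all), and the median was -0.11. Without the other 5 LMS and N libraries, 33 rose and 5 fell (34.7% and 42.1% of all), with a median of 0.62. Psma6, Psmb6, Psmd11 and Psmd13 rose and Psmc4 fell in all 3 fits, while 10 genes fell in the second fit and rose in the third, Psma4, Psma5 and Psma7 among them. N had 1 library in the second fit, which was assumed to vary like the others. The 3 fits share all LM libraries. How many of all tested genes kept or reversed a call across them is not given here. Those counts are therefore not read as particular to the proteasome genes.

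LMA against N gave 12 genes that rose (13.6% of all tested genes did) and 7 that fell (21.9% of all did). Psma6, Psmd8, Psmd11 and Psmd14 rose most, and Psmf1, Psme2b, Psme3 and Psme1, all of them caps or inhibitors beside the 19S cap, fell most. By place, 1 of 8 alpha subunits, 3 of 7 beta subunits, 1 of 6 ATPases and 5 of 11 other cap subunits rose, whereas 4 of 6 activators and inhibitors fell and only Psme4 among them rose. The median over the 46 genes was 0.37 on the log2 scale, beside -0.13 for all tested genes. With the 4 lymphocyte-rich libraries left out, the count was 5 risen and 19 fallen (25.6% and 36% of all), and the median -0.14. Without the other 5 LMS and N libraries it was 33 risen and 7 fallen (35.6% and 44.3% of all), and the median 0.62. Calls in the same direction in all 3 fits were Psma6, Psmb6, Psmd8, Psmd11 and Psmd13, which rose, and Psmc4, Psmd5, Psme3, Psmf1 and Psmg2, which fell. Other genes changed sign between the second fit, with 1 N library, and the third. Psma1, Psma5, Psmd6 and Psmd7 had log2 differences of -0.20, -0.43, -0.48 and -0.52 in the second. In the third they had 0.88, 1.49, 0.23 and 0.40. The 3 fits share all LMA libraries. How many of all tested genes kept or reversed their direction is not given here, so this is not read as particular to the proteasome genes.

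**Figure D2:**
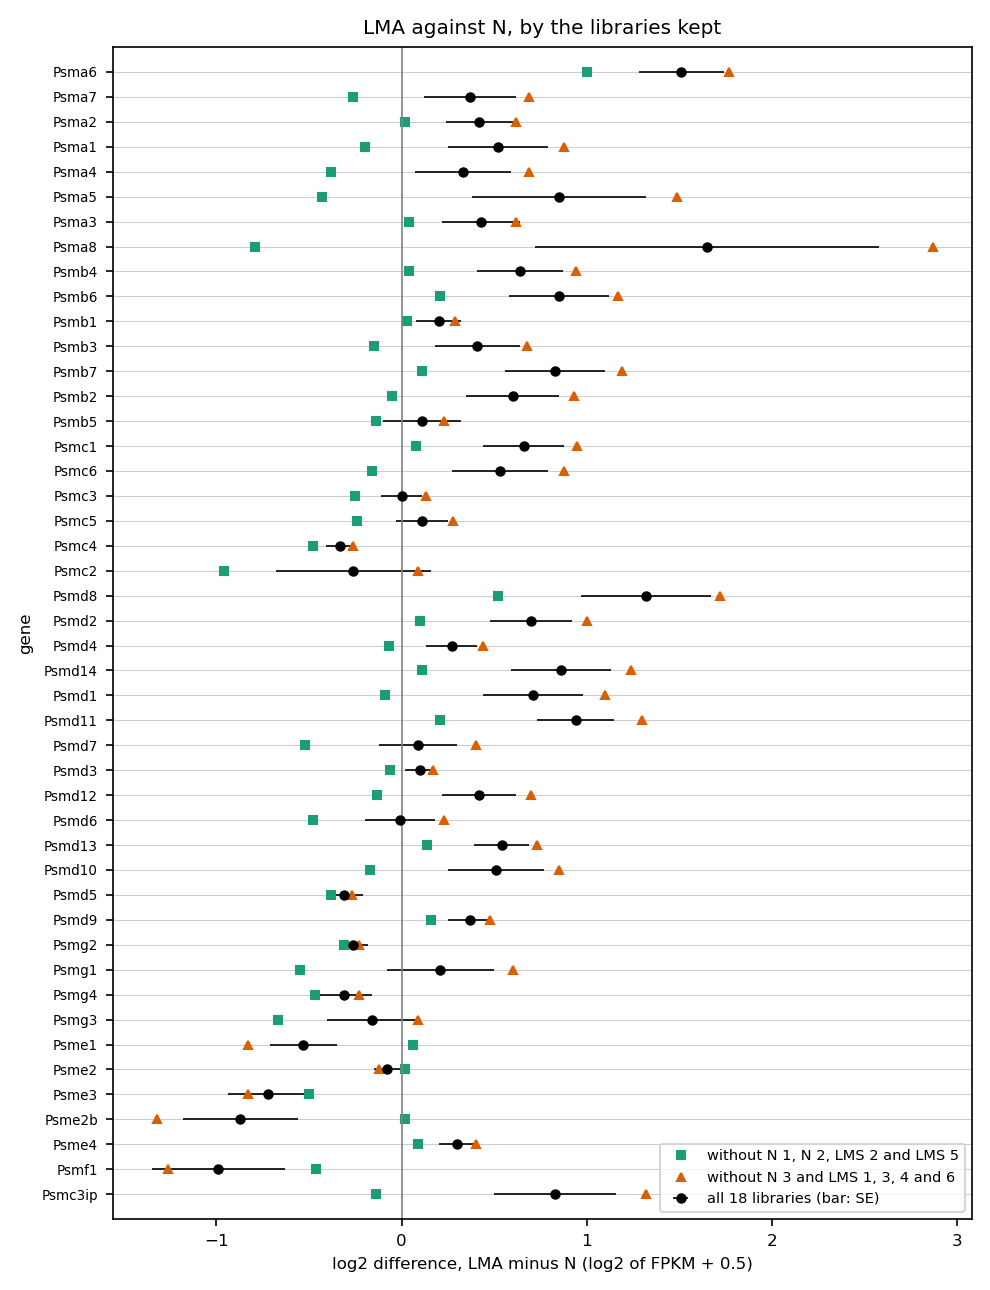
The log2 difference LMA minus N of each gene is plotted with all 18 libraries (black, with its SE), without N 1, N 2, LMS 2 and LMS 5 (green squares) and without N 3 and LMS 1, 3, 4 and 6 (orange triangles). For most subunits the green and orange points lie on both sides of 0, while Psma6 is at 1.51, 1.00 and 1.77 and Psmc4 at -0.33, -0.48 and -0.26.

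LMA against LMS set the activating complex against the suppressing one. In LMA 5 genes rose (11.3% of all tested genes did) and 5 fell (19.4% of all did). Psma6, Psmd8, Psmd11, Psmb6 and Psmd13 rose, and Psme3, Psmd5, Psmc4, Psmg4 and Psmg2 fell. When the 4 lymphocyte-rich libraries were dropped, 12 rose and 22 fell (28% and 44% of all), and without the other 5 LMS and N libraries, 33 rose and 7 fell (36.6% and 42.2% of all). The median log2 difference was 0.17 with all libraries, beside -0.12 for all tested genes, and -0.11 and 0.67 in the 2 smaller sets. All 5 that rose, and 4 of the 5 that fell, kept their call in the 3 fits. Psmg4, a core chaperone, was at 0.01 without the other 5 LMS and N libraries. How many of all tested genes kept a call in the 3 fits is not given here.

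LMS against LM gave 3 genes that rose in LMS (13.3% of all tested genes did), Psme3 (0.70 ± 0.22, SE), Psmd5 (0.39 ± 0.10) and Psmc4 (0.34 ± 0.08), and 1 that fell (7.94% of all did), Psma6 (-1.26 ± 0.23), with limma adjusted p of 7.3e-04 to 0.033. Those 4 calls held in all 3 fits, and 9 further genes, among them Psmb4, Psmb6, Psmb7, Psmd2 and Psmd14, fell in both smaller sets. The share of all tested genes that did so is not given here. With the 4 lymphocyte-rich libraries left out, 19 rose and 12 fell (40.5% and 27.6% of all), and without the other 5 LMS and N libraries, 6 rose and 31 fell (40.5% and 35.4% of all).

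With all libraries, LMA against LM and LMS against N gave no call by limma, among the 46 genes or among all tested genes (0% in each direction). That fit took 1 spread per gene from all 4 groups. LMA against LM was therefore judged also by the spread within LMS and N, where libraries stood apart. The lack of calls there does not show that LMA and LM were alike. In LMA against LM no proteasome gene and 131 of all genes had an unadjusted p under 0.05, and the 46 log2 differences had a median of -0.01. Every LMA value was above every LM value for 0 of the 46 genes (2.43% of all tested genes) and below for 1, the alpha subunit Psma4 (3.82% of all). Dropping the lymphocyte-rich libraries left 0 of the 46 genes called in LMA against LM (3 at an unadjusted p under 0.05) and 66 of all genes (1288 unadjusted). Dropping the other 5 LMS and N libraries left 0 (2 unadjusted) and 9 of all genes (743 unadjusted). In LMS against N 1 gene, Psmc3ip, and 506 of all genes had an unadjusted p under 0.05. Of the 46 log2 differences 41 were above 0, with a median of 0.23, beside -0.01 for all tested genes. Lymphocyte-rich were N 1 and N 2 of the 3 N libraries, and LMS 2 and LMS 5 of the 6 LMS libraries. The part of this uneven mix in the differences was not tested. In the fit that dropped the lymphocyte-rich libraries, N was left with N 3 alone. There 13 of the 46 differences in LMS against N were above 0, with a median of -0.04, beside -0.01 for all tested genes. In the fit that dropped the other 5, limma called 0 of the 46 (7 unadjusted) and 2 of all genes (2285 unadjusted) in LMS against N. There 22 of the 46 differences were above 0. With library weights, 36 of the 46 genes were called in LMS against N, 32 higher and 4 lower. The share of all tested genes with these weights is not given here, so this count does not set the 46 genes apart. With all libraries the values of all 46 genes overlapped between LMS and N. The comparisons with N share the same 3 libraries, those with LM or LMS likewise.

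Psma6 had 187 (lowest), 195 (median) and 203 FPKM (highest) in LMA, 195, 177 and 192 FPKM in LM, 50.3, 94.5 and 98.8 FPKM (lowest, median, highest) in LMS, and 54.2, 59.7 and 97.1 FPKM in N. All 9 LM and LMA libraries were above all 9 LMS and N libraries, and within LMS and N there were 2 levels, 50.3 to 59.7 FPKM in the 4 lymphocyte-rich libraries and 93.2 to 98.8 FPKM in the other 5. The log2 difference was 1.51 ± 0.23 (SE) in LMA against N (limma adjusted p = 1.2e-04), 1.46 ± 0.26 in LM against N (limma adjusted p = 8.5e-04) and 1.31 ± 0.19 in LMA against LMS (limma adjusted p = 4.8e-05). Of the other alpha subunits none showed this step. Psma5 had 75.8 to 83.9 FPKM in LM and LMA, 102 to 107 FPKM in the other 5 LMS and N libraries and 25.6 to 30.8 FPKM in the 4 lymphocyte-rich libraries, so that the middle set of Psma6 was the highest set of Psma5. Psma8 had 3.76 to 5.04 FPKM in LM and LMA, 6.9 to 8.17 FPKM in the other 5 LMS and N libraries, and 0.122 to 0.253 FPKM in the 4 lymphocyte-rich libraries. Psma8 is close in sequence to Psma7, and how reads were shared between them is not given.

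**Figure D3:**
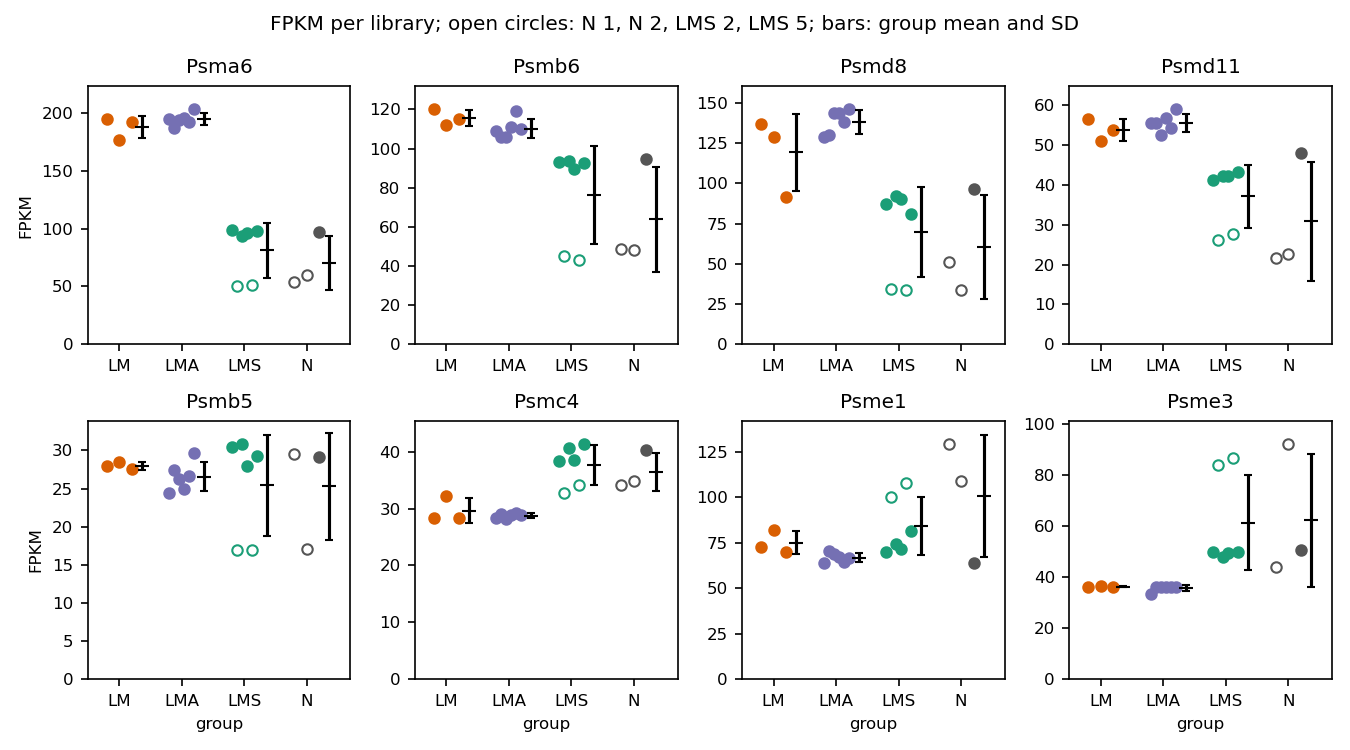
FPKM of 8 genes is plotted per library by group, LM, LMA, LMS and N from left to right, with N 1, N 2, LMS 2 and LMS 5 as open circles and the group mean and SD as black bars. Psma6, Psmb6 and Psmd11 of every LM and LMA library lie above every LMS and N library, Psmc4 and Psme3 lie below, and Psmb5 and Psme1 overlap.

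Of the cutting subunits of the beta ring, Psmb6 and Psmb7 rose in LMA against N, and Psmb5 did not pass the test. Psmb6, the caspase-like site, had 106, 109 and 119 FPKM (lowest, median, highest) in LMA, 120, 112 and 115 FPKM in LM, 43, 91.2 and 93.6 FPKM (lowest, median, highest) in LMS and 48.6, 48.4 and 94.9 FPKM in N. The LM and LMA values were all above the LMS and N values, and the log2 difference was 0.85 ± 0.27 (SE) in LMA against N (limma adjusted p = 0.0219). Psmb7, the trypsin-like site, had 84.5, 89 and 93.6 FPKM (lowest, median, highest) in LMA, 89.9, 85.9 and 86.5 FPKM in LM, 38.2, 78.4 and 82.1 FPKM (lowest, median, highest) in LMS and 33.7, 44.2 and 81.7 FPKM in N. It also separated LM and LMA from LMS and N, by a gap of 82.1 to 84.5 FPKM at its narrowest, and rose in LMA against N (0.83 ± 0.27, limma adjusted p = 0.0247), a difference of 0.11 without the 4 lymphocyte-rich libraries (limma adjusted p = 0.0593). Psmb5, the chymotrypsin-like site, had 24.4, 26.5 and 29.7 FPKM (lowest, median, highest) in LMA, 27.9, 28.5 and 27.5 FPKM in LM, 16.9, 28.7 and 30.8 FPKM (lowest, median, highest) in LMS and 29.5, 17.1 and 29.2 FPKM in N. Its groups overlapped in every comparison with N, and the log2 difference in LMA against N was 0.11 ± 0.21 (limma adjusted p = 0.679). The low values of Psmb5 were N 2, LMS 2 and LMS 5, while N 1 stood with the other 14 libraries.

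In the base and lid of the 19S cap, genes moved in both directions. Psmd11, a lid subunit, had 52.5, 55.7 and 59 FPKM (lowest, median, highest) in LMA, 56.5, 51 and 53.9 FPKM in LM, 26.2, 41.7 and 43.3 FPKM (lowest, median, highest) in LMS and 21.8, 22.7 and 48.1 FPKM in N. LM and LMA again lay above all other libraries, and the log2 difference was 0.94 ± 0.21 (SE) in LMA against N (limma adjusted p = 0.00335) and 0.61 ± 0.18 in LMA against LMS (limma adjusted p = 0.0145). Psmd14, the lid enzyme that removes ubiquitin chains, had 72.1, 77.9 and 81.2 FPKM (lowest, median, highest) in LMA and 30.5, 34.6 and 71.4 FPKM in N, with no overlap, and rose by 0.86 ± 0.27 (limma adjusted p = 0.0215). When the 4 lymphocyte-rich libraries were dropped, its difference was 0.11 (limma adjusted p = 0.058). Psmd13, another lid subunit, had 36.8, 38 and 40 FPKM (lowest, median, highest) in LMA, 37.5, 38.1 and 38 FPKM in LM, 22.3, 33 and 35.2 FPKM (lowest, median, highest) in LMS and 21.2, 24.2 and 34.4 FPKM in N. It rose in LMA against N by 0.54 ± 0.15 (limma adjusted p = 0.0132). Over all classes, 9 genes had every LM and LMA library above every LMS and N library (9.21% of all tested genes did): Psma6, Psmb6, Psmb7, Psmc1, Psmd2, Psmd11, Psmd13, Psmd14 and Psme4.

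Psmc4, a base ATPase, went the other way. It had 28.2, 28.9 and 29.3 FPKM (lowest, median, highest) in LMA, 28.3, 32.2 and 28.4 FPKM in LM, 32.7, 38.5 and 41.3 FPKM (lowest, median, highest) in LMS and 34.2, 34.9 and 40.3 FPKM in N. Psmc4 and Psme3 were 2 genes with every LM and LMA library below every LMS and N library (12.8% of all tested genes were). The log2 difference of Psmc4 was -0.33 ± 0.08 (SE) in LMA against N (limma adjusted p = 0.00552) and -0.38 ± 0.07 in LMA against LMS (limma adjusted p = 4.3e-04), and neither call held on the TPM scale. Psmd5, a base chaperone that binds ATPases during assembly, had 6.9, 7.29 and 7.44 FPKM (lowest, median, highest) in LMA, 7.43, 7.29 and 7.13 FPKM in LM, 9.26, 9.46 and 10.8 FPKM (lowest, median, highest) in LMS and 7.1, 11 and 9.6 FPKM in N. All LMS libraries were above all LM and LMA libraries, with a log2 difference of -0.40 ± 0.08 in LMA against LMS (limma adjusted p = 0.00117), while N 1 lay within the LMA values. Psmg4, a core chaperone, had 7.46, 9.81 and 12 FPKM (lowest, median, highest) in LMA and 9.52, 13.4 and 14.9 FPKM in LMS, with overlap between the groups, and fell in LMA by 0.35 on the log2 scale (SE 0.13, limma adjusted p = 0.0478).

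Among the activators, the PA28 genes that passed the test in LMA against N were lower in LMA. Psme1, the PA28 alpha subunit, had 63.7, 66.9 and 70.3 FPKM (lowest, median, highest) in LMA, 72.7, 82 and 69.9 FPKM in LM, 70.1, 77.8 and 108 FPKM (lowest, median, highest) in LMS and 129, 109 and 63.8 FPKM in N. The values above 82 FPKM were those of the 4 lymphocyte-rich libraries. In LMA against N it fell by 0.53 on the log2 scale (SE 0.18, limma adjusted p = 0.032), and without those 4 libraries the difference was 0.06 (limma adjusted p = 0.523). Psme2, the PA28 beta subunit, had 57.1, 58.6 and 61.1 FPKM (lowest, median, highest) in LMA, 60.3, 67.2 and 61 FPKM in LM, 54.7, 57.1 and 60.7 FPKM (lowest, median, highest) in LMS and 69.5, 59.2 and 58.1 FPKM in N. Its groups overlapped in each comparison with N, and in LMA against N the difference was -0.08 ± 0.07 (limma adjusted p = 0.388). Psme2b, an intronless gene close in sequence to Psme2, had 18.9 to 24.7 FPKM in 14 libraries and 44.3 to 57.3 FPKM in the 4 lymphocyte-rich libraries, and fell in LMA against N by 0.87 on the log2 scale (SE 0.31, limma adjusted p = 0.038). Reads of Psme2 and Psme2b may have been split between them, and without the 4 libraries the difference of Psme2b was 0.02.

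Psme3, the nuclear activator PA28 gamma, had 33.4, 36.1 and 36.2 FPKM (lowest, median, highest) in LMA, 35.9, 36.5 and 36.2 FPKM in LM, 47.8, 49.8 and 86.4 FPKM (lowest, median, highest) in LMS and 43.8, 91.9 and 50.6 FPKM in N. LM and LMA lay below all other libraries, and the high values were N 2, LMS 2 and LMS 5 but not N 1. The log2 difference was -0.72 ± 0.18 (SE) in LMA against LMS (limma adjusted p = 0.00589) and -0.72 ± 0.22 in LMA against N (limma adjusted p = 0.0203). Psme4, which encodes the activator PA200, averaged 21.4 FPKM in LMA and 17.6 FPKM in N and rose by 0.30 ± 0.10 (limma adjusted p = 0.0283), with 0.09 without the 4 lymphocyte-rich libraries (limma adjusted p = 0.123). Psmf1, an inhibitor of the core, had 3.08, 3.81 and 4.57 FPKM (lowest, median, highest) in LMA and 7.21, 13.4 and 5.44 FPKM in N, with a log2 difference of -0.99 ± 0.36 (limma adjusted p = 0.0433). That call of Psmf1 was lost when assembled loci were used, where the difference was -0.00.

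Psmc2, Psmd8, Psmf1 and Psma8 rest on an uncertain assignment of reads. The files list, beside the reference genes, loci assembled from the same reads, and for these 4 genes the log2 ratio of the reference value to the locus value varied by over 0.5 between libraries. Psmc2, a base ATPase, had reference values of 9.55 to 14.6 FPKM in 12 libraries of all groups and 25 to 37.7 FPKM in LM 3, LMA 1, LMA 3, LMA 4, N 2 and N 3, whereas its locus had 31.6 to 46.2 FPKM throughout. Psmd8, a lid subunit, had 129, 141 and 146 FPKM (lowest, median, highest) in LMA, 137, 129 and 91.8 FPKM in LM, 33.9, 84.3 and 92.3 FPKM (lowest, median, highest) in LMS and 51, 33.8 and 96.4 FPKM in N. The low LM 3 value did not recur in the locus, at 191 FPKM beside 195 and 181 FPKM in LM 1 and LM 2. On the locus values Psmd8 rose in LM against N by 1.40 ± 0.40 on the log2 scale (SE, limma adjusted p = 0.0194), and in LMA against N its difference was 1.39 ± 0.35 (limma adjusted p = 0.00629) beside 1.32 ± 0.35 on the reference values (limma adjusted p = 0.00898).

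**Figure D4:**
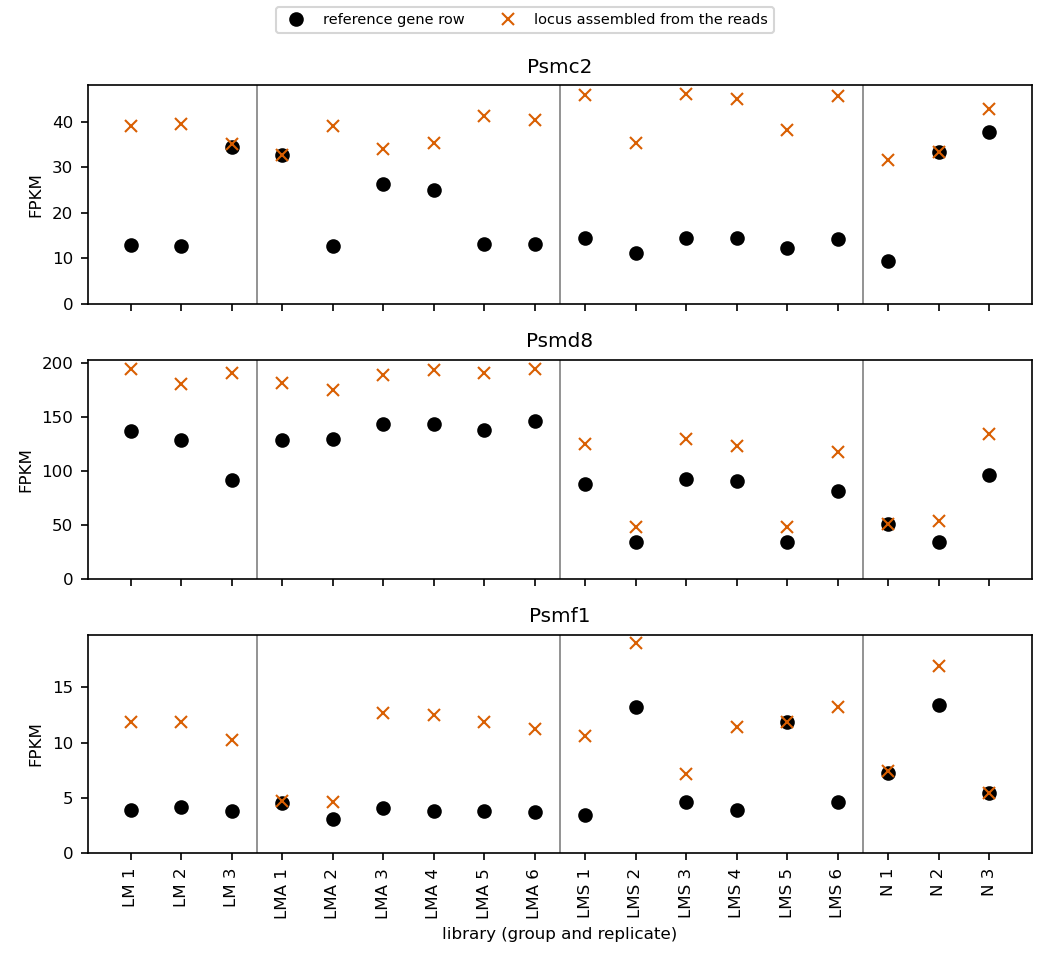
FPKM of Psmc2, Psmd8 and Psmf1 is plotted per library as the reference gene row (black circles) and as the locus assembled from the same reads (orange crosses), with lines between LM, LMA, LMS and N. The reference row of Psmc2 jumps between 2 levels within groups while its locus stays at 31.6 to 46.2 FPKM, and the locus of Psmd8 is at 175 to 195 FPKM in LM and LMA and at 47.9 to 134 FPKM in LMS and N.

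Of the 3 immunoproteasome genes, Psmb10 fell in LMA against N, with 12.1 ± 1.48 FPKM in LMA and 28.8 ± 13.7 FPKM in N (log2 difference -1.08 ± 0.27, limma adjusted p = 0.0058), a call lost without the 4 lymphocyte-rich libraries. Psmb10 also fell in LMA against LMS, with 12.1 ± 1.48 FPKM in LMA and 20.4 ± 5.66 FPKM in LMS (-0.69 ± 0.22, limma adjusted p = 0.0248), and this call held in both smaller sets (-0.46 and -1.15). Psmb8, Psmb9 and Psmb10 together held 138 to 184 FPKM in the 4 lymphocyte-rich libraries and 48.6 to 83.2 FPKM in the other 14. The ratio of Psmb8 to Psmb5 was 3.22 to 4.46 in those 4 libraries, 1.26 to 1.65 in LM and LMA and 0.917 to 1.32 in the other 5 LMS and N libraries. Psmb9 to Psmb6 was 0.828 to 0.995, 0.0643 to 0.175 and 0.0547 to 0.19 in the same order of sets. Psmb10 to Psmb7 was 0.64 to 1.19, 0.113 to 0.192 and 0.166 to 0.246. In each of the 3 ratios the last 2 sets overlapped. By treatment, Psmb10 to Psmb7 was 0.113 to 0.169 in LMA and 0.18 to 0.736 in LMS, with no overlap, a log2 difference of -1.20 (exact permutation test, two-sided, p = 0.00216, the smallest that 6 against 6 libraries allow, adjusted p = 0.039 over 18 tests). It was the only 1 of 18 ratios by comparison, 3 pairs in 6 comparisons, with an adjusted p under 0.05. In N, Psmb10 to Psmb7 was 0.166 to 1.19, and N 3, at 0.166, lay within the LMA values. The exact permutation test could not go below p = 0.1 in LM against N, with 3 libraries each. The difference of that ratio was -0.63 with the 4 lymphocyte-rich libraries left out and -2.33 with the other 5 left out, where the smallest p of an exact permutation test, 0.00952 and 0.0714, could not pass the threshold after adjustment.

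**Figure D5:**
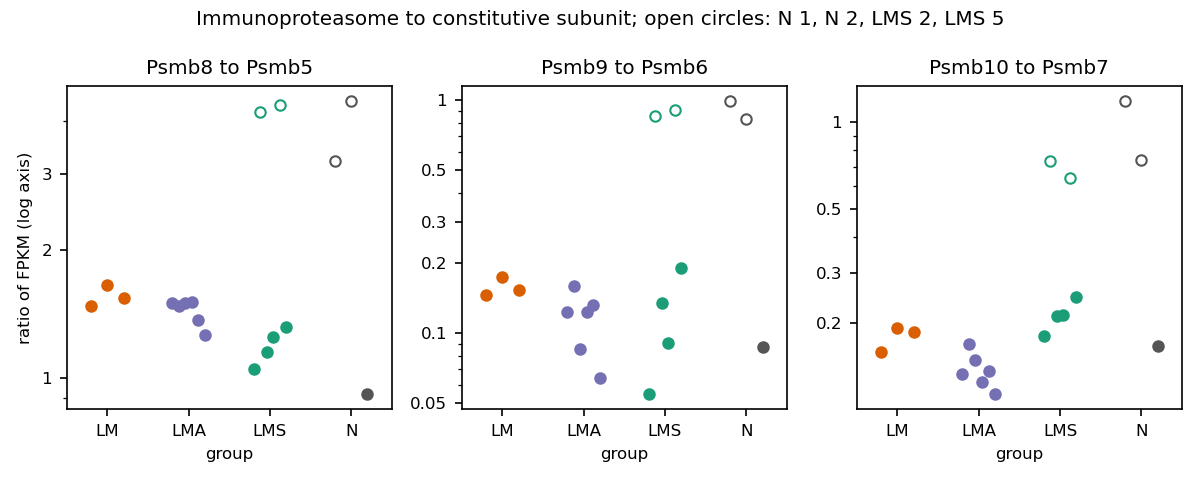
The ratio of FPKM of each immunoproteasome subunit to the constitutive subunit it replaces is plotted per library on a log axis, by group from LM at left to N at right, with N 1, N 2, LMS 2 and LMS 5 as open circles. Those 4 libraries are highest in each panel, at 3.22 to 4.46 for Psmb8 to Psmb5, and for Psmb10 to Psmb7 every LMA library lies below every LMS library.

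Genes that serve the proteasome without being part of the set were also compared. Of 8 other proteasome-bound genes, 4 rose and 1 fell in LMA against N, where 13.6% of all tested genes rose and 21.9% fell. Zfand2a, a stress-inducible protein that binds the cap, averaged 16.8 ± 2.12 FPKM in LMA (SD, n = 6) and 4.83 ± 0.946 FPKM in N (SD, n = 3), a log2 difference of 1.71 ± 0.17 (SE, limma adjusted p = 2.3e-06). Zfand5, which stimulates the 26S particle, averaged 39.1 ± 5.4 FPKM in LMA and 24.3 ± 5.08 FPKM in N, while Adrm1, a ubiquitin receptor of the cap, fell to 24.9 ± 1.11 FPKM in LMA, against 31.1 ± 0.461 FPKM in N. Of 6 regulators 1 rose and 1 fell. The riser was Nfe2l1, which encodes NRF1, the factor that raises proteasome genes when proteasome activity is short, with 59.4 ± 6.55 FPKM in LMA and 27.8 ± 6.27 FPKM in N (log2 difference 1.09 ± 0.15, limma adjusted p = 7.0e-05). Ddi2, the protease that activates NRF1, fell, with 10.6 ± 0.808 FPKM in LMA and 14 ± 1.29 FPKM in N. Of 14 genes of ubiquitin supply and delivery 4 rose and 1 fell, led by Sqstm1, the autophagy receptor p62, with 155 ± 3.69 FPKM in LMA and 80.2 ± 2.48 FPKM in N (log2 difference 0.95 ± 0.06, limma adjusted p = 1.0e-08). Ubqln2, a shuttle to the proteasome, fell, with 7.61 ± 0.217 FPKM in LMA and 11.5 ± 1.19 FPKM in N (log2 difference -0.56 ± 0.07, limma adjusted p = 2.7e-05). The counts of these lists changed with the libraries. Leaving out the 4 lymphocyte-rich libraries, 2 proteasome-bound genes rose and 3 fell, 3 regulators rose and 3 fell, and 5 genes of ubiquitin supply rose and 5 fell (25.6% and 36% of all). Leaving out the other 5 LMS and N libraries, the counts were 6 and 1, 2 and 2, and 7 and 4 (35.6% and 44.3% of all). The genes named here from these 3 lists kept their calls in LMA against N in both smaller sets. In LMA against LMS, Sqstm1 rose by 0.95 ± 0.05, Zfand2a by 1.62 ± 0.14 and Nfe2l1 by 0.95 ± 0.13, all by limma with adjusted p of 2.8e-05 or less.

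Other large complexes are set beside the proteasome. In LMA against N, 12 of 46 proteasome genes rose and 7 fell, beside 13.6% and 21.9% of all tested genes. Of 73 cytosolic ribosomal protein genes 1 rose and 9 fell (median log2 difference -0.10), of 36 genes of respiratory complex I 1 rose and 2 fell (median 0.19), and of 7 genes of the chaperonin TRiC no gene passed the threshold (median 0.50). When the 4 lymphocyte-rich libraries were dropped, the medians were -0.14 for the proteasome, -0.04, -0.24 and -0.34 for the ribosome, complex I and TRiC, and without the other 5 LMS and N libraries they were 0.62, -0.09, 0.47 and 0.86. Leaving out the 4 lymphocyte-rich libraries, 1 gene of complex I rose and 20 fell, all 7 of TRiC fell, and 11 ribosomal genes rose and 19 fell (25.6% and 36% of all). Leaving out the other 5 LMS and N libraries, 26 of complex I rose and 2 fell, all 7 of TRiC rose, and 8 ribosomal genes rose and 24 fell (35.6% and 44.3% of all). The medians of the proteasome, complex I and TRiC thus changed sign with the libraries kept, and whether the complexes differ was not tested.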

How the data were processed

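RNA of spleen was measured in 18 libraries, grouped by the treatment label. The authors sequenced on an Illumina NovaSeq, estimated raw counts and deposited FPKM per gene and library, scaled to gene length and library size. The submitters' processing notes name mm10 and GATK 4.2. For alignment and for quantification the tool was not given in the sources used here. Strand-specific counting is not stated. From the deposited coverage signal only the ratio to FPKM was taken, which gave 5.21 to 7.92 gigabases of aligned sequence per library. No read counts per gene were used, so no counting intervals are given. The authors also deposited a score headed TPM, scaled by them per library before deposition, with reference genes and assembled loci listed side by side. These score values were used, as deposited, only for sums per library and in no fit. In the TPM scale alternative, FPKM were instead divided by their library sum over the reference genes and rescaled.

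The 46 genes and all lists were chosen with earlier results of these data known. Repeated rows of a gene were summed. limma 3.58.1 (R 4.3.3, lmFit and eBayes with trend) was fitted to log2(FPKM + 0.5) of the 11436 protein-coding genes whose mean reached 0.5 FPKM, with 4 groups and all 18 libraries, and p-values were adjusted by Benjamini-Hochberg over all tested genes with a threshold of 0.05. Differences are on the log2(FPKM + 0.5) scale, which understates those of low genes. The fit was also run on simulated data with a spread drawn independently for each library. Those data lack the sets of libraries seen within LMS and N, so that run gives no error rate for the data here. For ratios an exact permutation test over libraries, two-sided, was used. Named are the cutting subunits, Psme1, Psme2, the highest and the lowest gene, up to 4 called genes with the largest rise and fall per comparison, and up to 3 genes of each list by adjusted p, of which 1 is not reported here; other genes named were chosen after their values were seen. Python 3.11.15 with numpy 2.4.6, pandas 2.3.3 and matplotlib 3.10.9 was used. Alternatives changed the pseudocount, filter, scale, libraries, weights and pairing, and assembled loci were added as an alternative after seeing the data.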

Additional observations from a re-analysis of the deposited data

Results flagged for a closer look

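Each gene was examined for a single distant library within LMA and within LMS, 92 groups of 6 in all, where chance marks about 1 in 20. That rate does not hold where LMS 2 and LMS 5 stood apart together, since a rule for 1 library cannot mark 2. Psma5, for example, had 27.9 to 30.8 FPKM in those 2 and 102 to 104 FPKM in the other LMS libraries. The count of marks thus does not tell how even LMS was. A single library stood apart in 2 of the 92 groups. Psme3 had 33.4 FPKM in LMA 1, while the other 5 LMA libraries lay between 36 and 36.2 FPKM. Psmb6 had 119 FPKM in LMA 5, while the others lay between 106 and 111 FPKM. Both values were on the same side of LMS and N as the rest of LMA.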

How the results depend on the processing

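The number of proteasome genes past the threshold depended on which libraries were used, and the cause was not tested. With all 18 libraries it was 5 in LM against N, 19 in LMA against N, 4 in LMS against LM and 10 in LMA against LMS. Without N 1, N 2, LMS 2 and LMS 5 it was 23 in LM against N, 31 in LMS against LM and 34 in LMA against LMS, and without N 3 and LMS 1, 3, 4 and 6 it was 38, 37 and 40 in those comparisons and 40 in LMA against N. Leaving out 1 library at a time gave 1 to 30 genes in LM against N, 5 to 34 in LMA against N, 0 to 15 in LMS against N, 3 to 6 in LMS against LM, 7 to 16 in LMA against LMS and 0 in LMA against LM. The highest counts came without N 3, and in LMA against N 7 were left without N 1 and 5 without N 2. Library weights gave 32 in LM against N, 33 in LMA against N, 36 in LMS against N, 33 in LMS against LM and 34 in LMA against LMS. Apart from the full and the 2 smaller sets of libraries, shares of all tested genes are not given here. Those counts are therefore not read as particular to the proteasome genes. The share of all tested genes called in LM against N was 25% with all libraries and 76.8% without N 3 and LMS 1, 3, 4 and 6. LM against N had 3 without a filter, 3 on the TPM scale, 12 with median-of-ratios scaling and 0 with only the 2 groups compared, and LMS against LM had 7 and 2 with the last 2 settings. Median-of-ratios scaling moved the median log2 difference of all genes in LMA against N to -0.02, beside -0.13. With a replicate block LMA against N had 10 genes, and the block left the other counts as they were. Same-numbered libraries correlated at -0.64 to 0.91 (13 of 21 pairs over 0.1), so the numbers were not read as pairs. The count of ratios past the threshold, 1 with all libraries, was 0 in both smaller sets and 0 to 1 on leaving out 1 library. With 1 LMA or LMS library left out, Psmb10 to Psmb7 in LMA against LMS had the smallest p the exact permutation test allows, 0.00433. Its adjusted p was 0.0779 and could pass only if another ratio reached so small a p too. These counts therefore do not measure stability. The difference was -0.95 to -1.36 on leaving out 1 LMA or LMS library. Psma6 and Psmd11 kept their call in LMA against N in 31 of 31 alternatives. Assembled loci in place of reference genes were an alternative chosen after seeing the data. Without read counts per gene, counting error is unknown.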

Other observations

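N 1 differed from N 2, LMS 2 and LMS 5, to which it was close in lymphocyte markers. Psme3 had 43.8 FPKM in N 1 and 91.9, 83.8 and 86.4 FPKM in N 2, LMS 2 and LMS 5, and Psmf1 had 7.21 FPKM in N 1 and 13.4, 13.2 and 11.9 FPKM in those 3. Psmb5 went the other way, with 29.5 FPKM in N 1 and 17.1, 17 and 16.9 FPKM. The 8 genes of the cell cycle list summed to 106 FPKM in N 1 and to 458, 445 and 465 FPKM in N 2, LMS 2 and LMS 5, and the 7 erythroid genes to 2519 FPKM and 83985, 72338 and 74838 FPKM. Whether these lists had a part in the 3 proteasome genes was not tested.

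Psmc3ip, which the name rule takes up although it is no proteasome subunit, had 1.84 FPKM in N 1, 3.59 to 4.24 FPKM in N 2, LMS 2 and LMS 5, and 6.07 to 9.12 FPKM in the other 14 libraries.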
